A study of Mus musculus with 12 samples.

Results

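The question here was whether the agent PSTO and bacterial lipopolysaccharide (LPS) acted on each transcript independently in RAW 264.7 cells, a mouse macrophage line grown from a virus-induced tumour. The measure was the non-additivity contrast, which is the PSTO effect with LPS (PSTO+LPS over LPS) minus the PSTO effect without LPS (PSTO over control), each a log2 fold change. The same number is the LPS effect in PSTO-treated cells minus the LPS effect in untreated cells. It is 0 where the folds of both agents multiply, positive where the combined level lies above that product, and negative where it lies below. Genes were described if their mean was at least 1 CPM (reads per 1000000 reads of the library) in every group, which held for 10830 of the 14505 genes tested and of 55137 entries in the table. At this threshold Tnfrsf14 lay just inside, with 1.0003 CPM in its lowest group, and Fam117a just outside, with 0.9997 CPM.

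Each of the 4 groups had 3 libraries. PSTO+LPS cells received 20 uM PSTO, then 500 ng/mL LPS after 30 minutes; LPS cells received vehicle, then LPS; PSTO cells received PSTO alone; control cells received vehicle alone. Harvest followed after 6 h. What the letters PSTO stand for is not stated, though a garlic extract appears in the title of the study. The labels call the libraries triplicates without saying that they came from separate cultures, so p-values measure the spread between these samples, which may be technical.

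Macrophages sense LPS through the receptor encoded by Tlr4. One branch of the signal drives NF-kB and MAP kinases, which turn on cytokine genes, and another drives interferon-beta, which turns on antiviral genes. Feedback genes such as phosphatases and SOCS proteins limit both branches. Electrophilic and oxidative stress raise a separate set through NRF2 and ATF4, and LPS also slows the macrophage cell cycle.

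Library totals were 15817880 to 20424584 reads with PSTO+LPS, 22341924 to 28625784 with LPS, 21847730 to 23857202 with PSTO and 20652947 to 26575919 in control. All 8 defining macrophage markers reached a mean of 1 CPM over the 12 libraries, though the mean of Mertk was under 1 CPM in some group. Epithelial and erythroid markers summed to less than 1 CPM in every library and fibroblast markers to at most 2.11 CPM. The neutrophil list summed to between 9.04 and 11.7 CPM with PSTO+LPS, 2.4 and 3.51 with LPS, 1.31 and 1.84 with PSTO and 1.55 and 1.95 in control. The B cell list summed to between 5.01 and 6.86 CPM with PSTO+LPS, 7.7 and 12 with LPS, 0.248 and 0.351 with PSTO and 0.0 and 0.0937 in control. The endothelial list summed to between 11.5 and 12.4 CPM with PSTO+LPS, 6.22 and 9.37 with LPS, 6.55 and 11.2 with PSTO and 4.38 and 6.01 in control. The T cell list summed to between 3.57 and 6.13 CPM with PSTO+LPS, 5.93 and 7.55 with LPS, 2.07 and 2.59 with PSTO and 0.797 and 2.12 in control. A mean of 1 CPM over the 12 libraries was reached by Pdgfrb of the fibroblast list, S100a8 of the neutrophil list, Pax5 of the B cell list, Vwf and Cdh5 of the endothelial list and Lck of the T cell list. Their part in the results below was not tested. On principal component 3, which held 2.95% of the variance of log2 CPM, all PSTO+LPS and control libraries were positive and all LPS and PSTO libraries negative, which is the pattern of a non-additive response. The library PSTO+LPS 1 stood apart on component 4 (1.35%), at 21.01 against -11.87 and -13.46 for the other PSTO+LPS libraries. In bulk RNA, fewer cells of a kind and less RNA per cell cannot be told apart.

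The response of many genes departed from additivity, mostly by less than 2-fold. Of the 10830 genes, 2324 passed an adjusted p of 0.05 in the contrast (21.5%; edgeR quasi-likelihood test, Benjamini-Hochberg adjusted), 920 higher (8.49%) and 1404 lower (13%). Of these, 347 (3.2% of the 10830) differed from the product of the single effects by 2-fold or more, 167 higher (1.54%) and 180 lower (1.66%). Of the effects it is built from, PSTO+LPS vs LPS called 45.4% of these genes (18.5% higher, 26.9% lower), PSTO vs control 37.8% (17.8% and 20.0%), PSTO+LPS vs PSTO 67.9% (32.1% and 35.8%) and LPS vs control 70.6% (35.7% and 34.8%). The scaling factors differed with LPS, at 0.832 to 0.851 in the libraries with it and 1.17 to 1.21 in those without. Upper-quartile factors shifted the LPS effects by -0.11 with PSTO and -0.15 without. The split of LPS calls into higher and lower therefore depends on the scaling. The median contrast over all 10830 genes was -0.03, and among called genes the median size was 0.54. Counts of called genes in the lists below stand against the contrast's shares of 21.5% called, 8.49% higher and 13% lower. These shares differed with the LPS effect. Of the 3870 genes higher in LPS vs control, 30.7% were called, 225 higher and 965 lower in the contrast. Of the 3773 genes lower in LPS vs control, 22.1% were called, 582 higher and 252 lower. The size of the excess of lower over higher calls varied with the scaling of the libraries. It was smaller but remained with RLE factors (1070 higher, 1214 lower), upper-quartile factors (1100 and 1188) and DESeq2 (1179 and 1320). With any PSTO or control library left out and the scaling recomputed, higher calls were the more numerous (997 to 1086 higher against 933 to 966 lower). With the factors of all 12 libraries kept, the same fits gave 789 to 839 higher and 1224 to 1262 lower. Without PSTO+LPS 1 there were 874 higher and 1388 lower.

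**Figure D1:**
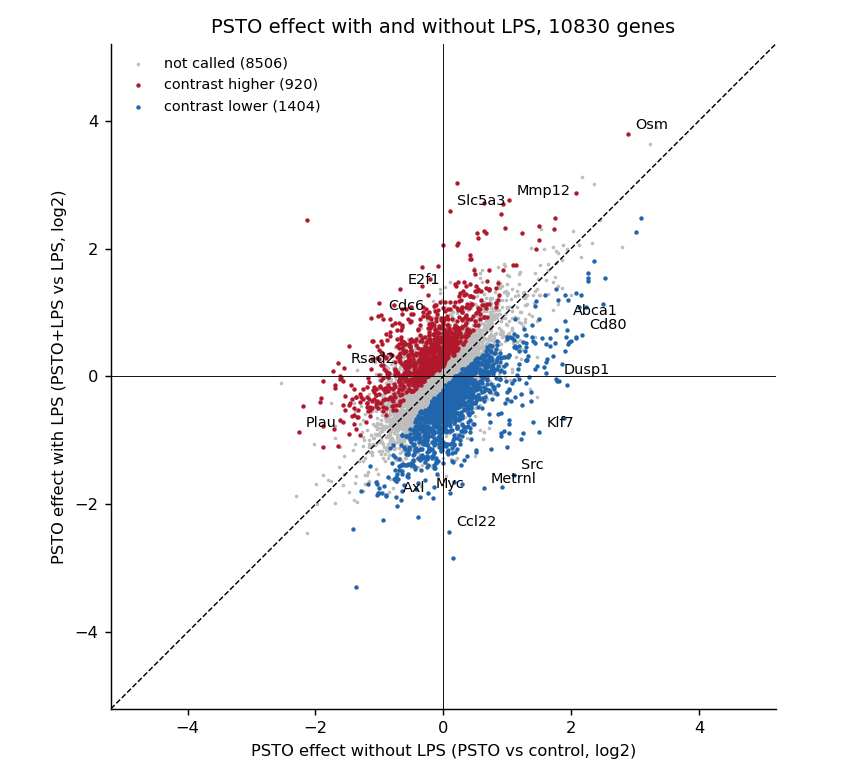
Log2 PSTO effect with LPS (PSTO+LPS over LPS, vertical axis) against the log2 PSTO effect without LPS (PSTO over control, horizontal axis) for 10830 genes, each a point. Points on the dashed line have the same PSTO effect in both settings; the 920 genes called higher lie above it and the 1404 called lower lie below it, and reversals of the PSTO effect lie in the upper left and lower right quadrants.

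Genes were sorted by what each agent did alone. Both agents alone raised 1077 genes, of which 475 were called in the contrast, and lowered 1142, of which 386 were called. The rest did not pass the test for a departure. Among the called genes that both moved the same way, the contrast most often ran against that direction. In 742 genes the contrast did so (antagonism, 31.9% of all those called), and in 119 it ran with that direction (synergy, 5.12%). A further 193 genes were moved in opposite directions by the 2 agents and ended closer to the LPS side than the product of both folds, and 198 ended closer to the PSTO side. Where LPS alone acted and PSTO alone did not pass the test, the contrast ran against the LPS effect in 607 genes (damped) and with it in 165 (enlarged). Where PSTO alone acted and LPS alone did not pass the test, it ran against the PSTO effect in 102 genes (damped) and with it in 41 (enlarged). Damped genes include those whose effect turned sign, such as Ocstamp and C5ar1. In 157 genes neither agent alone passed the test. These classes share their control libraries with the contrast. A control value that is high by chance lowers both single effects and raises the contrast, so the larger number of antagonistic genes is a description. Reversal is a stricter pattern, in which an effect passed the test in both settings with opposite signs. PSTO effects reversed in 296 genes (122 higher, 174 lower) and LPS effects in 152 (50 higher, 102 lower), with 40 genes in both. The lower reversals of the PSTO effect fell to between 99 and 111 genes, and those of the LPS effect to between 61 and 65, when any 1 PSTO or control library was left out and the scaling recomputed.

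**Figure D2:**
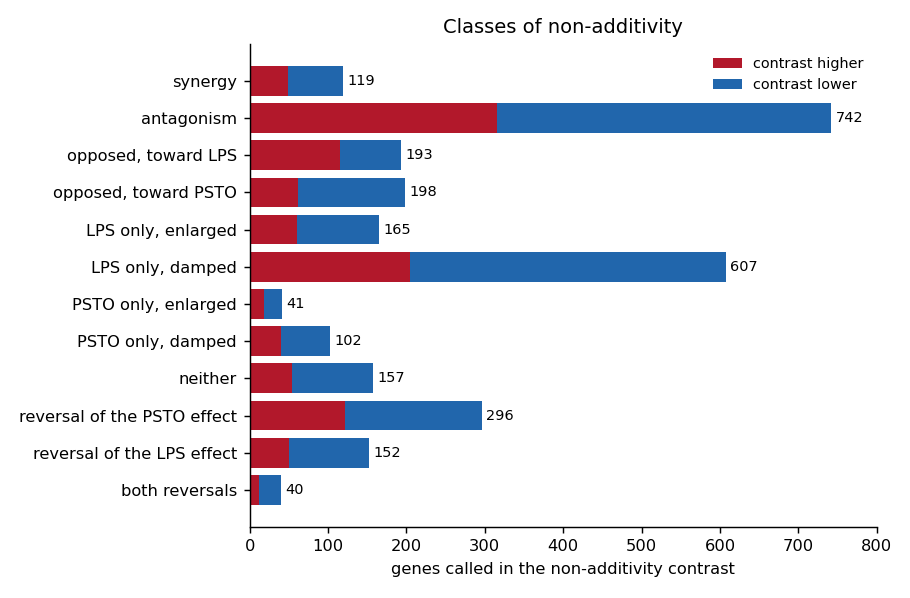
Number of genes in each class of non-additivity, as horizontal bars split into genes whose contrast was called higher and lower. The top 9 bars add up to the 2324 called genes, with antagonism (742) and damping of an LPS-only effect (607) the longest, and the 3 reversal bars count genes that also belong to one of those classes.

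PSTO alone lowered most of the DNA replication genes, but in the presence of LPS it raised more than it lowered. The PSTO effect reversed in 9 of the 29, against 2.73% of all 10830 genes. Of these 29 genes (of 30 on the list; 1 was under 1 CPM in a group), 19 were called higher and 0 lower, with a median contrast of 0.85 against -0.03 over all 10830 genes. PSTO+LPS vs LPS had a median of 0.12, with 12 of the 29 higher and 5 lower. PSTO vs control had a median of -0.66, with 0 higher and 25 lower. LPS lowered 24 with PSTO and 28 without, with medians of -0.74 with PSTO and -1.83 without. Left-out libraries and other fits gave 18 to 22 called higher and 0 lower.

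E2f1 encodes a transcription factor that starts the S-phase programme. It had 13.7, 11.5 and 9.71 CPM with PSTO+LPS, 5.07, 4.31 and 4.2 CPM with LPS, 18.1, 18.7 and 18.7 CPM with PSTO and 32.1, 26.2 and 30.0 CPM in control. No library of one group overlapped another group. PSTO raised it by 1.36 on the log2 scale with LPS and lowered it without LPS (-0.67), a contrast of 2.03 (SE 0.19, adjusted p = 4.26e-07), and the combined level was 4.09 times the product of the single effects. Cdc6, which loads the replicative helicase onto origins, had 3.57, 3.25 and 3.22 CPM with PSTO+LPS, 1.63, 1.67 and 1.86 CPM with LPS, 10.5, 10.1 and 11.5 CPM with PSTO and 21.9, 20.0 and 21.6 CPM in control. Here too all 4 groups were apart, and the contrast was 1.95 (SE 0.21, adjusted p = 2.19e-06). Gins2, a subunit of the moving helicase, reversed in the same way, by 0.73 with LPS and -0.66 without (contrast 1.39, SE 0.24, adjusted p = 0.000432). All 6 helicase subunit genes Mcm2 to Mcm7 were called, with contrasts of 1.27, 1.32, 1.21, 1.07, 1.25 and 1.19. Cyclin E2 (Ccne2), which drives entry into S phase, had a contrast of 1.43 (SE 0.28, adjusted p = 0.00138), with a PSTO effect of 0.42 with LPS, which did not pass the test, and -1.01 without. Its kinase partner gene Cdk2 reversed, at 0.45 with LPS and -0.7 without (contrast 1.15, SE 0.14, adjusted p = 1.31e-05). Smaller contrasts were found for Pcna, the sliding clamp (0.47, adjusted p = 0.000111), and Rrm2, which makes deoxynucleotides (0.85, adjusted p = 0.00125).

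To show what these promoters hold, the 250 bases before the RefSeq start of Cdc6 and of the helicase gene Mcm6 are given from build GRCm38.p6, 5′ to 3′ on the gene's strand, with matches to the E2F letters TTTNNCGC on either strand in capitals. The Cdc6 window is chr11:98907901-98908150 (+) and the Mcm6 window chr1:128359706-128359955 (-).
Cdc6: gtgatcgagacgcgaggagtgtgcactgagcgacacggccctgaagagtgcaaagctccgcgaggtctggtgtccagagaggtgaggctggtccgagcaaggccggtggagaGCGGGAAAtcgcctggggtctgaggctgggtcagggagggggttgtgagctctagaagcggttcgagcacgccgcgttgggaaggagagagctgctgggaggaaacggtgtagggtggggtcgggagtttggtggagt
Mcm6: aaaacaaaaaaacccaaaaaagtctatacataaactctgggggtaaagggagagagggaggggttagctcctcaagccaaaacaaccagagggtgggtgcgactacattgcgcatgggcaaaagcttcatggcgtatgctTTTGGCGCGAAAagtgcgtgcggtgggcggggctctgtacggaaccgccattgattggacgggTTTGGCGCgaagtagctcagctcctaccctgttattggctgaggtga
This motif was chosen after the values were seen. Of 24 DNA replication genes with a promoter window, 11 held it within 250 bases before and 50 after the start (45.8%), against 10.5% of the 7988 genes of the CPM rule with a window and 14.5% of the called-higher genes. E2f1 itself was not among these 11 genes. A match is a description of the letters and says nothing of binding.

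**Figure D3:**
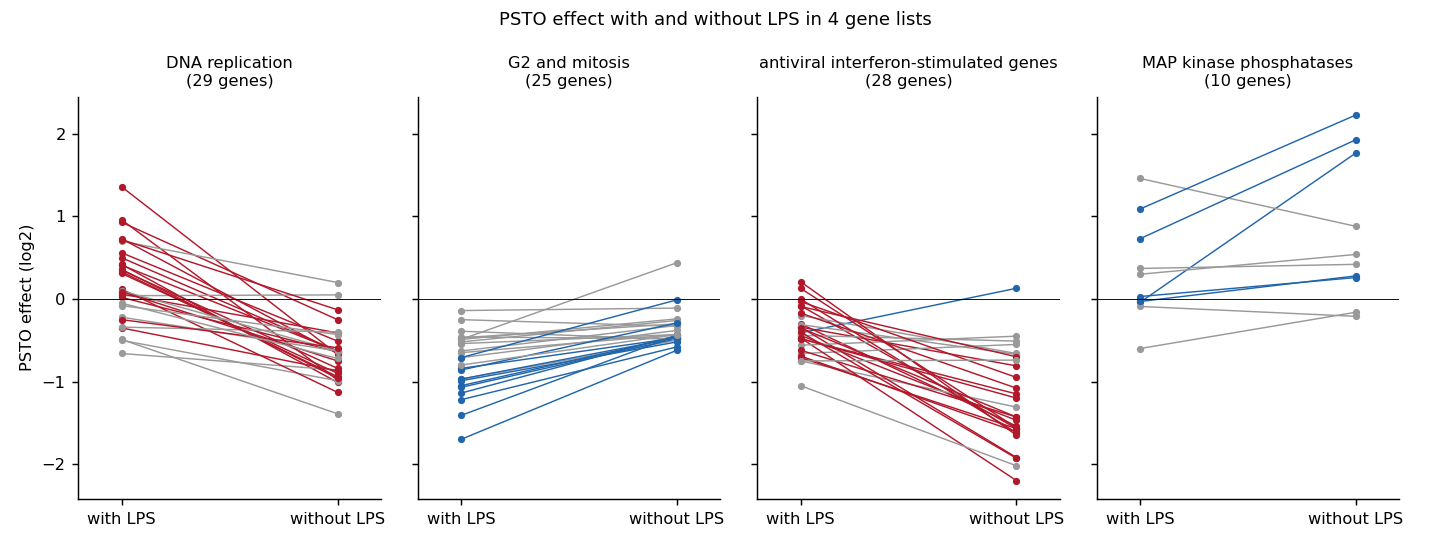
Log2 PSTO effect with LPS (left point) and without LPS (right point) for each gene of 4 lists, joined by a line, red where the contrast was called higher, blue where called lower and grey where not called. DNA replication genes lie mostly below 0 without LPS and at or above 0 with LPS, mitotic genes lie mostly below 0 in both and lower with LPS, antiviral genes approach 0 with LPS, and the PSTO effects of the 3 phosphatase genes most raised without LPS were smaller with it.

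The mitotic genes had contrasts of the other sign and made up 9 of the 70 genes of downward synergy. All 25 genes on the G2 and mitosis list were lowered by LPS in both settings. PSTO lowered 22 of them with LPS (median -0.71) and 19 without (median -0.43). In the contrast 11 of 25 were lower and 0 higher (median -0.37). The count was 7 without control 1 and 14 at most with another library left out. Cenpf, a kinetochore protein, had 6.62, 7.62 and 8.58 CPM with PSTO+LPS, 26.7, 27.7 and 19.4 CPM with LPS, 52.3, 55.0 and 54.7 CPM with PSTO and 83.9, 87.1 and 77.3 CPM in control. The groups did not overlap, with control highest and the combination lowest. The contrast was -1.08 (SE 0.16, adjusted p = 9.55e-05), which put the combined level at 0.474 of the product of the single effects. On the linear scale, where the CPM changes add in place of the folds, it lay above the additive level, by 11.8 CPM. Cdk1, the kinase that starts mitosis, had PSTO effects of -1.14 with LPS and -0.44 without (contrast -0.7, SE 0.13, adjusted p = 0.00093). Prc1, which bundles the central spindle, changed with PSTO only when LPS was there, at -0.71 with LPS and -0.01 without (contrast -0.69, SE 0.1, adjusted p = 0.0001). Top2a (-0.58), Ccna2 (-0.59) and Ccnb1 (-0.64), encoding a topoisomerase and cyclins A2 and B1, were also lower. Off the list, Fbxo5, an inhibitor of the anaphase-promoting complex, had 1.32, 1.43 and 1.25 CPM with PSTO+LPS and 22.9, 20.3 and 25.4 CPM in control (contrast -1.03, SE 0.25, adjusted p = 0.00664, which rose to 0.0985 with limma-voom). The S-phase and mitotic lists had median contrasts of opposite sign, 0.85 and -0.37, in the same libraries.

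Upward synergy was seen in genes of several functions. Osm encodes oncostatin M, a cytokine of the interleukin-6 family. Its libraries had 450, 489 and 470 CPM with PSTO+LPS, 30.9, 39.5 and 31.5 CPM with LPS, 64.3, 60.7 and 63.5 CPM with PSTO and 8.78, 8.38 and 8.27 CPM in control. The 4 groups were far apart, and PSTO raised Osm by 3.79 with LPS and 2.89 without (contrast 0.9, SE 0.11, adjusted p = 1.22e-05). Chml, which takes part in the lipid modification of Rab proteins, had 240, 214 and 207 CPM with PSTO+LPS, 84.3, 74.8 and 78.1 CPM with LPS, 34.7, 33.2 and 36.9 CPM with PSTO and 30.7, 30.0 and 28.4 CPM in control. PSTO alone moved it little and the combination far, 2.37 times the product of both effects (contrast 1.24, SE 0.1, adjusted p = 6.29e-08). Pfkfb3, which makes the main activator of glycolysis, averaged 2.28 times that product (contrast 1.19, SE 0.1, adjusted p = 1.17e-07), and Tubb2a, a beta-tubulin, 2.24 times (contrast 1.16, SE 0.14, adjusted p = 9.66e-06). Mmp12, the macrophage elastase, had 27.1, 20.9 and 20.6 CPM with PSTO+LPS against 2.01, 4.51 and 3.67 CPM with LPS, but fewer than 5 CPM without LPS, and its contrast of 1.73 (SE 0.48, adjusted p = 0.0165) was not called without control 1 (highest adjusted p of any fit, 0.074). Il1rn, the interleukin-1 receptor antagonist, had PSTO effects of 1.13 with LPS and 0.72 without (contrast 0.41, SE 0.09, adjusted p = 0.00383).

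In the antiviral genes the PSTO effect was smaller with LPS than without it on the log2 scale. PSTO lowered 20 of the 28 antiviral interferon-stimulated genes (of 32 on the list) with LPS and 25 without, with a median effect of -0.4 with LPS and -1.37 without. LPS raised all 28 in both settings, with medians of 6.45 with PSTO and 5.7 without. A given log2 effect is therefore a far larger change in CPM with LPS than without it. The contrast was higher in 19 and lower in 1, with a median of 0.89, and 19 genes were in the class where the agents opposed each other and the combination ended toward LPS. Left-out libraries gave 18 to 23 called higher, and limma-voom gave the lowest count of the other fits, 14.

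Rsad2 encodes viperin, an antiviral enzyme. It had 9934, 12613 and 12882 CPM with PSTO+LPS, 10405, 11574 and 10455 CPM with LPS, 6.52, 4.48 and 6.24 CPM with PSTO and 12.7, 18.3 and 20.1 CPM in control. The groups overlapped with LPS, while every PSTO library was below every control library. The contrast was 1.69 (SE 0.19, adjusted p = 5.54e-06), made of PSTO effects of 0.13 with LPS and -1.56 without. Rtp4, an interferon-induced inhibitor of viral replication, had 518, 602 and 620 CPM with PSTO+LPS, 578, 596 and 569 CPM with LPS, 8.47, 7.6 and 12.4 CPM with PSTO and 22, 36.2 and 30.2 CPM in control. Again the groups overlapped only with LPS (contrast 1.62, SE 0.2, adjusted p = 1.36e-05). Ifit1, which binds viral RNA, had a contrast of 1.73 (SE 0.34, adjusted p = 0.00143; 0.128 with limma-voom), and 1.21, 1.92 and 2.13 CPM with PSTO against 4.03, 10.2 and 10.5 CPM in control. On the linear scale the sign for Ifit1 was the opposite, with a linear excess of -1083 CPM. How many others of the list changed sign on that scale is not given here. Irf9, part of the factor that drives these genes, had 271, 286 and 284 CPM with PSTO+LPS, 259, 260 and 260 CPM with LPS, 22.2, 23.8 and 23.1 CPM with PSTO and 38.0, 49.3 and 44.4 CPM in control. PSTO effects were 0.11 with LPS and -0.93 without (contrast 1.03, SE 0.1, adjusted p = 6.73e-07). Usp18 (1.53), Cmpk2 (1.49) and Dhx58 (1.25) were further members called higher, and Bst2, tetherin, was the 1 called lower (-0.54, adjusted p = 0.00349). Of the interferon-inducible GTPases 4 of 16 passed the CPM rule. Irgm1 and Irgm2 were higher (0.9 and 0.91; adjusted p = 0.00506 and 0.0107), and neither was called with limma-voom, where the adjusted p-values were 0.0514 and 0.0515. Ifit1, Ifit3 and Ifit3b are close paralogs, so reads may be split between them.

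Rsad2 and Ifit1 are shown as examples of promoters with the interferon response motif, which is GAAA, any 2 bases and GAAA again, searched on both strands and printed in capitals. The windows are chr12:26456453-26456702 (-) for Rsad2 and chr19:34640639-34640888 (+) for Ifit1, both of GRCm38.p6, 250 bases up to the RefSeq start.
Rsad2: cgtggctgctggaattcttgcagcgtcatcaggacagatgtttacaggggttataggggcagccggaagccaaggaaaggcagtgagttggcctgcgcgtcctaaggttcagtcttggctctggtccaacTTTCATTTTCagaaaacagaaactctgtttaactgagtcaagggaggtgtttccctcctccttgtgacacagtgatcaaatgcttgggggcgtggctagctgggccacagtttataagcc
Ifit1: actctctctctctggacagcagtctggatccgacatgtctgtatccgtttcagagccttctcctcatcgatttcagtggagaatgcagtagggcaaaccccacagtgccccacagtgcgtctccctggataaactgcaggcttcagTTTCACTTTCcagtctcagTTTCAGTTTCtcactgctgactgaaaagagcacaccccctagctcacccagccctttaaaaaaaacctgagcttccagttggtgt
The motif stood in 11 of the 21 antiviral genes with a window (52.4%), against 3.76% of all 7988. Among all genes called higher the share was 4.61%, and among those called lower 3.09%.

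Feedback phosphatases were among the antagonistic genes. Each agent alone raised Dusp1, Dusp4, Dusp5 and Dusp16, and the combined level stayed below the product of both effects. Of 10 MAP kinase phosphatase genes (of 12), 5 were lower in the contrast and 0 higher, with a median of -0.28. With any PSTO or control library left out, 3 were lower. Dusp1, an early brake on p38 and JNK, had 165, 178 and 170 CPM with PSTO+LPS, 177, 179 and 172 CPM with LPS, 90.5, 90.2 and 89.6 CPM with PSTO and 29.1, 24.6 and 25.6 CPM in control. The 2 groups with LPS overlapped, and both were above PSTO, which was above control. The PSTO effect was -0.04 with LPS and 1.77 without (contrast -1.81, SE 0.08, adjusted p = 2.57e-10), the combined level being 0.285 of the product. Dusp5 had 476, 594 and 598 CPM with PSTO+LPS, 336, 322 and 344 CPM with LPS, 102, 104 and 104 CPM with PSTO and 27.2, 26.4 and 27.7 CPM in control. Here PSTO still raised the level with LPS, but by 0.73 in place of 1.93 (contrast -1.19, SE 0.1, adjusted p = 1.37e-07). Dusp16, which acts on JNK, had PSTO effects of 1.09 with LPS and 2.23 without (contrast -1.14, SE 0.08, adjusted p = 2.02e-08).

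The Dusp1 window, chr17:26508473-26508722 (-) of GRCm38.p6, is printed because it holds the cyclic AMP response letters TGACGNCA, in capitals, which are the same on both strands at this place.
Dusp1: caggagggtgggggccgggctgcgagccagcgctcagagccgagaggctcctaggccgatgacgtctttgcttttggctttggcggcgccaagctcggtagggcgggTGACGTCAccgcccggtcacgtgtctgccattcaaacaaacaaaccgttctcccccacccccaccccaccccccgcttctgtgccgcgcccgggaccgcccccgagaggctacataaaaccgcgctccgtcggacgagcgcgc
Dusp1 and Dusp16 were the 2 of 9 phosphatase genes with a window that held these letters (22.2%, against 7.06% of all 7988). Among all genes called lower the share was 6.28%, and among those called higher 6.7%. A loose NF-kB motif, GGG and CC with any 5 bases between them, was too common to set groups apart, in 72.2% of all windows and in 75.7% of those called higher and of those called lower.

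**Figure D4:**
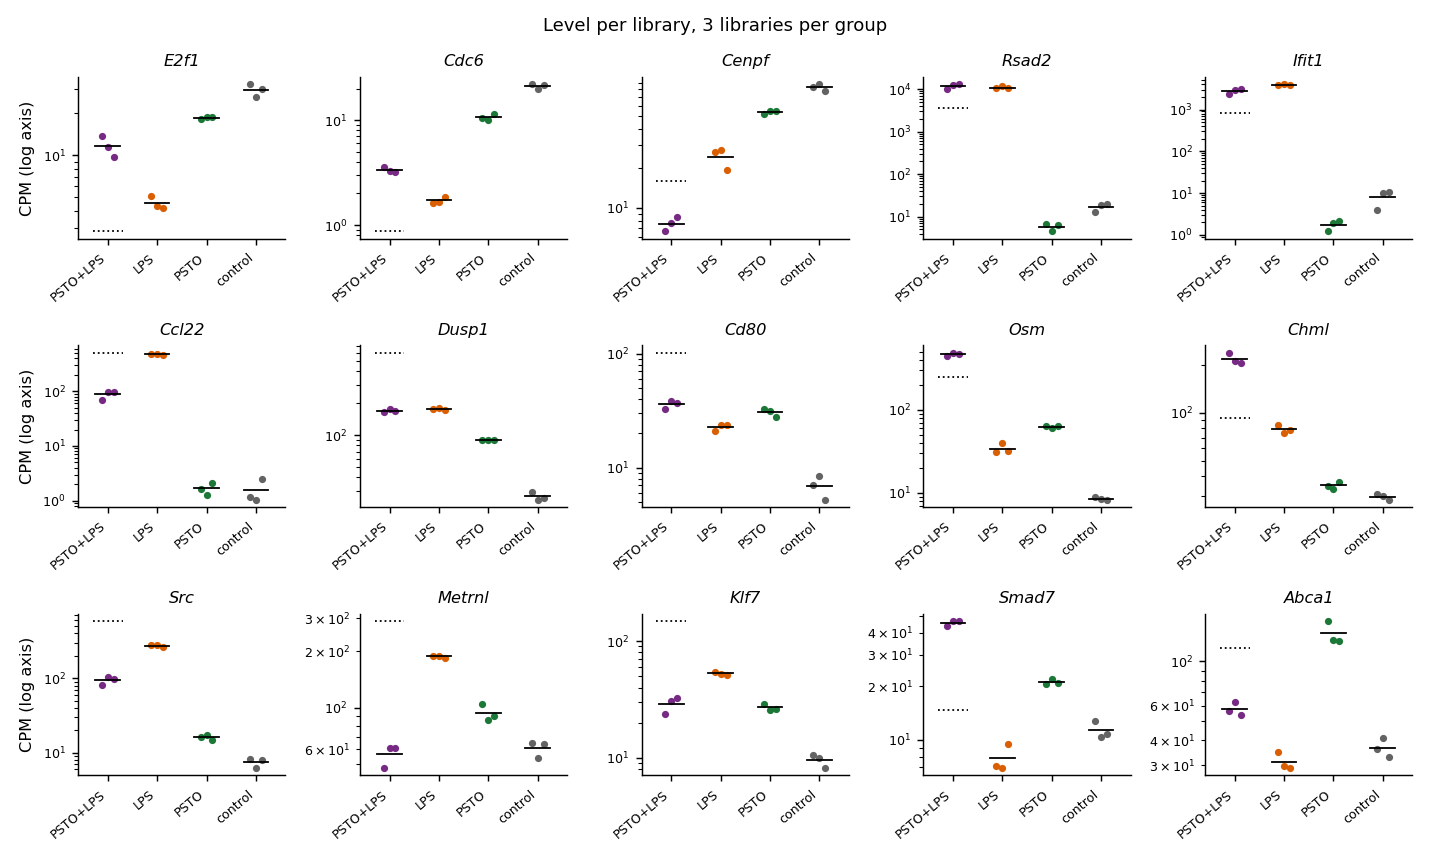
CPM of 15 genes in every library on log axes, 3 points per group with a short line at the mean, for PSTO+LPS, LPS, PSTO and control from left to right. The dotted line over PSTO+LPS marks the level expected if the single effects multiplied; E2f1, Cdc6, Rsad2, Ifit1, Osm, Chml and Smad7 lie above it and Cenpf, Ccl22, Dusp1, Cd80, Src, Metrnl, Klf7 and Abca1 below it.

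Other activation genes were antagonistic as well. Among 9 co-stimulatory and MHC class II genes (of 16), 5 were lower and 2 higher, with a median of -0.74; 2 were lower without control 1, and 3 without PSTO 2 or control 3. Cd80, a ligand of CD28 on T cells, had 32.6, 38.4 and 36.6 CPM with PSTO+LPS, 21.0, 23.8 and 23.7 CPM with LPS, 32.9, 31.5 and 27.8 CPM with PSTO and 7.06, 8.34 and 5.22 CPM in control. PSTO alone gave almost the level of the combination, with PSTO effects of 0.65 with LPS and 2.17 without (contrast -1.52, SE 0.18, adjusted p = 8.56e-06). Cd40, the receptor through which T cells license macrophages, reversed. PSTO lowered it with LPS, at 218, 262 and 302 CPM with PSTO+LPS against 475, 504 and 462 CPM with LPS, and raised it without, at 1.95, 2.78 and 2.94 CPM with PSTO against 1.66, 0.917 and 0.595 CPM in control. The contrast of -2.14 (SE 0.3, adjusted p = 4.91e-05) rests on low levels in the libraries without LPS. Cd83, a maturation marker, had PSTO effects of 0.02 with LPS and 1.15 without (contrast -1.14, SE 0.1, adjusted p = 1.99e-07). Icam1 (0.58), which binds leukocyte integrins, and Cd274 (0.51), which encodes PD-L1, were the members called higher.

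Of 8 coagulation and urokinase genes (of 16), 5 were lower and 1 higher (2 higher without LPS 1, PSTO 3 or control 2), with a median of -0.93. Plaur, the urokinase receptor, had 1777, 1870 and 1912 CPM with PSTO+LPS, 1544, 1554 and 1542 CPM with LPS, 281, 266 and 263 CPM with PSTO and 113, 106 and 113 CPM in control. The groups were apart, and the PSTO effect was 0.26 with LPS and 1.29 without (contrast -1.03, SE 0.06, adjusted p = 2.06e-09). Its ligand gene Plau went the other way, since PSTO lowered it in both settings but less with LPS, with effects of -0.87 with LPS and -2.26 without (contrast 1.39, SE 0.17, adjusted p = 1.11e-05). F10, coagulation factor X, was lowered by PSTO with LPS (-1.73), while the effect of -0.14 without LPS did not pass the test (contrast -1.59, SE 0.23, adjusted p = 7.45e-05). The receptor and its ligand thus had contrasts of opposite sign.

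Among signalling regulators, Socs3, which blocks cytokine receptors, had 911, 995 and 1031 CPM with PSTO+LPS, 1010, 1007 and 943 CPM with LPS, 31.8, 33.2 and 32.2 CPM with PSTO and 14.0, 12.3 and 11.9 CPM in control. PSTO raised it without LPS only, with effects of -0.01 with LPS and 1.34 without (contrast -1.35, SE 0.09, adjusted p = 7.7e-09). Of 22 IRF, STAT and SOCS genes, 4 were higher and 7 lower. Of 19 NF-kB and feedback genes 3 were higher and 7 lower, but this split turned with the scaling, with 6 or 7 higher by DESeq2, RLE or upper-quartile factors and 3 or 4 lower without any 1 PSTO or control library. Within it Traf1, an adaptor of TNF receptors, was lower (-0.65, SE 0.13, adjusted p = 0.00154) and Relb, a subunit of the second NF-kB pathway, higher (0.86, SE 0.12, adjusted p = 5.08e-05). Immediate early genes were mixed, 5 higher and 7 lower of 20, with 2 higher without LPS 1 or LPS 3 and 3 without PSTO+LPS 2 or PSTO+LPS 3. Ier2 was antagonistic (-0.78, SE 0.09, adjusted p = 5.47e-06), and Jund had a PSTO effect of 0.6 with LPS, which did not pass the test, and 2.08 without (contrast -1.48, SE 0.34, adjusted p = 0.00451).

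LPS induction was smaller under PSTO in several genes for which PSTO alone did not pass the test. Of 11 chemokine genes that passed the CPM rule (of 20), 5 were lower and 0 higher, with a median of -0.71; 9 of the 20 were under 1 CPM in some group. Ccl22, which attracts T cells through CCR4, had 70.7, 95.2 and 99.0 CPM with PSTO+LPS, 483, 483 and 457 CPM with LPS, 1.64, 1.28 and 2.09 CPM with PSTO and 1.16, 1.04 and 2.48 CPM in control. The groups with LPS were far apart and those without overlapped (contrast -2.52, SE 0.33, adjusted p = 2.64e-05). Ccl9 stood at 1261, 1604 and 1620 CPM with PSTO+LPS, 3201, 3364 and 3132 CPM with LPS, 380, 353 and 330 CPM with PSTO and 371, 349 and 395 CPM in control (contrast -1.04, SE 0.11, adjusted p = 1.27e-06). Ccl2, which draws monocytes, had PSTO effects of -1.17 with LPS and -0.04 without (contrast -1.13, SE 0.27, adjusted p = 0.00586; 0.146 with limma-voom). Cxcl2, a neutrophil attractant, differed in that PSTO raised it in both settings, by 1.54 with LPS and 2.27 without (contrast -0.73, SE 0.14, adjusted p = 0.000999). Its combined level was below the product but 5327 CPM (SE 416) above the sum of the single changes.

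Myc, a growth regulator, had 59.3, 75.9 and 78.4 CPM with PSTO+LPS, 256, 248 and 254 CPM with LPS, 6.99, 8.16 and 9.04 CPM with PSTO and 9.12, 8.42 and 10.9 CPM in control. PSTO lowered it by 1.83 with LPS, while without LPS the groups overlapped (contrast -1.59, SE 0.16, adjusted p = 8.03e-07). Among 26 Toll-like receptor and signalling genes 11 were lower and 2 higher, and 6 were lower without control 1. Irak2, a kinase of this pathway, gave -0.91 with LPS and -0.05 without (contrast -0.85, SE 0.1, adjusted p = 9.4e-06). Ticam1, the adaptor TRIF, was antagonistic (-0.72, SE 0.14, adjusted p = 0.00116). Among 19 inflammasome and cell death genes 10 were lower and 2 higher (1 higher without LPS 1 or PSTO+LPS 2). The lower genes included Bcl2l1, a survival gene (-0.73, SE 0.1, adjusted p = 4.25e-05), and Gsdmd, which forms the pyroptotic pore (-0.68, SE 0.12, adjusted p = 0.000503). Pmaip1, which encodes the death protein NOXA, was higher (0.86, SE 0.14, adjusted p = 0.000192). Of 19 MHC class I and immunoproteasome genes 7 were lower and 0 higher (36.8% called against 21.5% of all genes). LPS alone raised all 19, and of all genes it raised 30.7% were called, mostly lower. Tap2, part of the peptide transporter, had PSTO effects of -1.23 with LPS and -0.34 without (contrast -0.89, SE 0.2, adjusted p = 0.00372), and Psme1, a proteasome activator subunit, -0.67 with LPS and 0.02 without (contrast -0.69, SE 0.11, adjusted p = 0.000223).

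Some genes of osteoclast differentiation gave low contrasts, while others were higher or not called. RAW 264.7 cells are a common model of osteoclast formation. Of 10 genes (of 14), 4 were lower and 2 higher. The higher ones were Atp6v0d2 (1.08, adjusted p = 0.000567) and Mitf (0.65, adjusted p = 9.53e-05). Ctsk (0.17), Dcstamp (-0.01), Tnfrsf11a (-0.01) and Acp5 (-0.68) were not called. Src, a kinase needed for bone resorption, had 80.7, 105 and 97.1 CPM with PSTO+LPS, 279, 277 and 264 CPM with LPS, 16.5, 17.4 and 14.8 CPM with PSTO and 8.22, 6.3 and 8.07 CPM in control. No groups overlapped, and the PSTO effect reversed, at -1.54 with LPS and 1.1 without (contrast -2.63, SE 0.14, adjusted p = 9.56e-10). Ocstamp, which is needed for cell fusion, had 0.691, 1.28 and 1.49 CPM with PSTO+LPS, 6.03, 8.58 and 10.1 CPM with LPS, 5.23, 3.39 and 3.94 CPM with PSTO and 4.12, 3.79 and 3.41 CPM in control. The LPS effect was -1.86 with PSTO and 1.12 without, a contrast of -2.98 (SE 0.39, adjusted p = 1.99e-05). Nfatc1, the master regulator of osteoclasts, was lowered by PSTO with LPS (-1.39) and hardly without (-0.14; contrast -1.25, SE 0.09, adjusted p = 1.73e-08). Car2, carbonic anhydrase 2, gave -1.19 with LPS and 0.18 without (contrast -1.37, SE 0.11, adjusted p = 6.48e-08).

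Reversal of the LPS effect was seen in both directions. Metrnl, a secreted protein of activated macrophages, had 47.6, 60.5 and 60.7 CPM with PSTO+LPS, 190, 190 and 185 CPM with LPS, 105, 85.6 and 90.6 CPM with PSTO and 64.5, 53.6 and 64.0 CPM in control. Each agent alone raised it and the combination lay at the control level. The LPS effect was -0.74 with PSTO and 1.63 without, and the PSTO effect -1.75 with LPS and 0.63 without (contrast -2.37, SE 0.13, adjusted p = 9.56e-10). Klf7, a Kruppel-like transcription factor, had 23.6, 30.6 and 32.5 CPM with PSTO+LPS, 54.1, 52.7 and 51.6 CPM with LPS, 29.1, 25.7 and 26.2 CPM with PSTO and 10.5, 10 and 8.17 CPM in control. Klf7 reversed in its PSTO effect, lowered with LPS and raised without, and not in its LPS effect. With PSTO its libraries with and without LPS overlapped, while without PSTO LPS raised it by 2.46 (contrast -2.37, SE 0.16, adjusted p = 1.15e-08). Dpep2, a dipeptidase that acts on leukotrienes, had a contrast of -2.11 (SE 0.26, adjusted p = 1.26e-05) and both effects reversed, at levels of 5.59 to 6.67 CPM with PSTO+LPS, 8.96 to 11.6 with LPS, 8.97 to 14.5 with PSTO and 4.12 to 4.23 in control. Nes, an intermediate filament gene, reversed in its LPS effect at lower levels, 2.07 to 3.17 CPM with PSTO+LPS, 3.81 to 5.15 with LPS, 4.66 to 6.44 with PSTO and 0.86 to 2.31 in control (contrast -2.54, SE 0.44, adjusted p = 0.000409).

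In the other direction Smad7, which inhibits TGF-beta signalling, had 43.9, 46.6 and 46.4 CPM with PSTO+LPS, 7.16, 6.96 and 9.53 CPM with LPS, 20.7, 22 and 20.9 CPM with PSTO and 12.8, 10.4 and 10.8 CPM in control. The LPS effect was 1.11 with PSTO and -0.53 without (contrast 1.64, SE 0.16, adjusted p = 1.08e-06). Rbm38, an RNA-binding target of p53, had LPS effects of 1.16 with PSTO and -0.69 without (contrast 1.85, SE 0.23, adjusted p = 1.14e-05). Tob1, an antiproliferative gene, had LPS effects of 0.74 with PSTO and -0.85 without (contrast 1.59, SE 0.26, adjusted p = 0.000234). Hpgds, the hematopoietic prostaglandin D synthase, reversed in both effects, at 56.9, 44.9 and 44.1 CPM with PSTO+LPS, 26.8, 28.0 and 27.0 CPM with LPS, 36.1, 37.7 and 40.9 CPM with PSTO and 60.9, 65.4 and 58.9 CPM in control (contrast 1.53, SE 0.13, adjusted p = 1.27e-07). Either agent alone lowered it, and together they left it between the single treatments and control. The largest contrast, 4.58 for the splicing gene Snrnp40 (SE 1.16, adjusted p = 0.00961), came from single libraries, with 1.04, 4.6 and 14.1 CPM with PSTO+LPS, 0.754, 1.57 and 1.33 CPM with LPS, 1.8, 0.941 and 1.03 CPM with PSTO and 1.28, 1.48 and 13.7 CPM in control. It was not called without control 3 or with limma-voom. The contrast of Txnrd2, a mitochondrial thioredoxin reductase (-2.65, SE 0.78, adjusted p = 0.0244), was likewise uneven within groups and was lost without any 1 of PSTO 1, PSTO+LPS 2, PSTO+LPS 3, control 1 and control 3, and with DESeq2 (adjusted p = 0.0974).

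Some other genes with high contrasts, such as Slc5a3 and Pdcd4, were lowered by LPS alone and less, or not at all, when PSTO was present. Slc5a3, which imports the osmolyte myo-inositol, had 103, 88.2 and 72.9 CPM with PSTO+LPS, 13.1, 17.5 and 13.2 CPM with LPS, 133, 109 and 111 CPM with PSTO and 108, 118 and 104 CPM in control. The LPS libraries were far below all others (contrast 2.49, SE 0.16, adjusted p = 8.64e-09). Pdcd4, an inhibitor of translation, had 13.7, 9.96 and 7.75 CPM with PSTO+LPS against 2.89, 2.06 and 2.61 CPM with LPS, and between 10.5 and 11.6 CPM in every PSTO and control library (contrast 2.06, SE 0.26, adjusted p = 1.64e-05). Gucy2g, a membrane guanylate cyclase, was high only in the combination, with 12, 7.93 and 8.16 CPM with PSTO+LPS and at most 1.99 CPM in any other library (contrast 2.81, SE 0.58, adjusted p = 0.00214). Neither agent alone passed the test for it. Slc16a12, a creatine transporter (2.16, SE 0.2, adjusted p = 4.33e-07), and Impa2, which frees inositol from its phosphate (2.05, SE 0.38, adjusted p = 0.000781), reversed in their PSTO effect. Epha2, an ephrin receptor, was at 8.81, 4.45 and 7.09 CPM with PSTO+LPS against 1.3, 0.833 and 0.958 CPM with LPS (contrast 2.08, SE 0.34, adjusted p = 0.000215). Trem2, a lipid-sensing receptor, had a contrast of 1.94 (SE 0.43, adjusted p = 0.00333) and an uneven control group, at 21.6, 9.25 and 28.9 CPM in control. At the low end Cdc42ep2, a Cdc42 effector, reversed in its PSTO effect (-0.98 with LPS, 1.21 without; contrast -2.19, SE 0.32, adjusted p = 7.48e-05).

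Stress genes differed by pathway. Of 24 ATF4 response genes 12 were lower and 0 higher, with a median of -0.25. Trib3, a pseudokinase that restrains ATF4, had 11.6, 16.1 and 16.1 CPM with PSTO+LPS, 23.1, 27.2 and 25 CPM with LPS, 31.5, 32.0 and 33.8 CPM with PSTO and 27.8, 23.5 and 24.4 CPM in control. PSTO lowered it with LPS and raised it without (contrast -1.15, SE 0.16, adjusted p = 5.11e-05). Ddit4, an inhibitor of mTORC1, was raised in both settings, less with LPS (1.28 with LPS and 2.16 without; contrast -0.87, SE 0.22, adjusted p = 0.0103). The ATF4 partner gene Ddit3 was not called (0.19, SE 0.17, adjusted p = 0.517). Of 21 endoplasmic reticulum chaperone genes 11 were higher and 1 lower, with 6 or 7 higher without any 1 LPS library and 0 lower without PSTO 3 or control 1. Dnajb9, a co-chaperone of BiP, had PSTO effects of 1.07 with LPS and 0.4 without (contrast 0.66, SE 0.14, adjusted p = 0.00206), and Ern1, which encodes the sensor IRE1, 0.99 with LPS and 0.51 without (contrast 0.48, SE 0.13, adjusted p = 0.0138). The ATF4 and chaperone lists had medians on opposite sides of 0, at -0.25 and 0.19.

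PSTO raised most NRF2 targets in both settings, 23 of 27 with LPS and 20 without. In the contrast 9 of the 27 were higher and 2 lower, with a median of 0.23. Hmox1, heme oxygenase, had 8988, 6753 and 7067 CPM with PSTO+LPS, 2836, 2854 and 3038 CPM with LPS, 2481, 3367 and 3487 CPM with PSTO and 1578, 1962 and 1737 CPM in control. It was synergistic (0.56, SE 0.15, adjusted p = 0.0147), with the PSTO+LPS libraries above all others. Srxn1, sulfiredoxin, also was (0.6, SE 0.12, adjusted p = 0.0013). Slc7a11, the cystine importer, was instead antagonistic, with 2313, 1856 and 1851 CPM with PSTO+LPS, 1355, 1282 and 1328 CPM with LPS, 599, 667 and 710 CPM with PSTO and 212, 247 and 215 CPM in control (contrast -0.95, SE 0.11, adjusted p = 5.71e-06). Gclc, which makes the glutathione precursor, was higher (0.8, SE 0.15, adjusted p = 0.000637), while Gclm (0.23, adjusted p = 0.286), Nqo1 (0.43, adjusted p = 0.0759) and Txnrd1 (0.11, adjusted p = 0.408) did not pass. A missed threshold does not show that these responses were additive.

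Of 18 heat shock chaperone genes 5 were lower and 1 higher (33.3% called against 21.5% of all genes). There were 3 lower without PSTO 2, PSTO 3 or any 1 control library and 0 higher without LPS 1. Hspa1b, an inducible HSP70 gene, had a contrast of -1.32 (SE 0.12, adjusted p = 2.43e-07); its near-identical copy Hspa1a had under 1 CPM in control, and reads may be split between them. Among 10 metal genes 4 were higher and 2 lower (0 lower without PSTO 2, PSTO 3 or any 1 control library), with the zinc importers Slc39a14 and Slc39a10 both synergistic at 0.32 (adjusted p = 0.00115 and 0.00687). Of 18 aminoacyl-tRNA synthetase genes 5 were lower and 0 higher (27.8% called against 21.5% of all genes), and 3 were lower without LPS 1, PSTO+LPS 3 or any 1 PSTO or control library.

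Genes of lipid and glucose metabolism moved in both directions. PSTO lowered 15 of 24 cholesterol synthesis genes with LPS and 19 without, and 5 were higher (8 without PSTO 3) and 1 lower in the contrast (25% called, near the 21.5% of all genes). Cyp51, a sterol demethylase, had 242, 201 and 202 CPM with PSTO+LPS, 182, 187 and 185 CPM with LPS, 85.4, 92.4 and 95.8 CPM with PSTO and 128, 131 and 135 CPM in control. Its PSTO effect reversed with LPS (contrast 0.74, SE 0.09, adjusted p = 1.38e-05). Of 13 fatty acid synthesis genes 4 were higher and 0 lower (30.8% called against 21.5% of all genes). Among the 4 was Acly, which makes cytosolic acetyl-CoA (0.47, SE 0.07, adjusted p = 9.28e-05). LXR targets split, with 3 higher and 4 lower of 12, and 2 lower without PSTO 2, PSTO 3 or control 3. Abca1, which exports cholesterol, had 56.1, 62.4 and 53.5 CPM with PSTO+LPS, 34.9, 29.7 and 29.1 CPM with LPS, 160, 128 and 127 CPM with PSTO and 36.2, 41.0 and 33.2 CPM in control. The PSTO libraries were the highest, and the PSTO effect was 0.87 with LPS and 1.91 without (contrast -1.04, SE 0.14, adjusted p = 3.42e-05). Its relative Abcg1 was instead lowered by PSTO, with effects of -1.58 with LPS and -0.87 without (contrast -0.72, SE 0.19, adjusted p = 0.0146). The call was lost without PSTO 2, PSTO 3 or control 3, with an adjusted p of up to 0.0589.

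Of 25 glycolysis and hypoxia genes 8 were lower and 2 higher (40% called against 21.5% of all genes). No left-out library gave fewer than 8 lower. Slc2a1, the glucose importer GLUT1, had 439, 450 and 463 CPM with PSTO+LPS, 420, 441 and 418 CPM with LPS, 277, 286 and 281 CPM with PSTO and 166, 154 and 164 CPM in control. The groups with LPS overlapped and the PSTO libraries were above control (contrast -0.72, SE 0.06, adjusted p = 2.81e-07). Pfkl, the liver-type phosphofructokinase, had 44.7, 57.8 and 58.3 CPM with PSTO+LPS against 138, 138 and 140 CPM with LPS (contrast -0.74, SE 0.12, adjusted p = 0.000146). The contrasts of Slc2a1 and Pfkl were thus opposite in sign to that of Pfkfb3.

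Of 15 prostanoid and leukotriene genes 4 were higher and 1 lower (33.3% called against 21.5% of all genes). Alox5, which starts leukotriene synthesis, had a contrast of 1.12 (SE 0.17, adjusted p = 8.66e-05), and Ptges, a prostaglandin E synthase, one of -1.05 (SE 0.21, adjusted p = 0.00144). Ptgs2, cyclooxygenase 2, had 11524, 9297 and 9494 CPM with PSTO+LPS, 3424, 3265 and 3232 CPM with LPS, 88.7, 84.7 and 99.1 CPM with PSTO and 35.2, 32.9 and 32.3 CPM in control. No groups overlapped, yet its contrast did not pass (0.17, SE 0.1, adjusted p = 0.277). Among 15 nitric oxide, arginine and itaconate genes 2 were higher and 3 lower (33.3% called against 21.5% of all genes). Without LPS 2, LPS 3, PSTO+LPS 1 or control 3, 1 was higher. Gch1, which makes the cofactor of nitric oxide synthase, was at -0.79 (SE 0.12, adjusted p = 0.000112).

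Macrophage identity genes were called in 15 of 21 cases, 10 higher and 5 lower, with a median of 0.27. Cebpa, a lineage factor, had 82.9, 65.3 and 69.8 CPM with PSTO+LPS, 37.5, 30.6 and 35.2 CPM with LPS, 82.7, 104 and 118 CPM with PSTO and 131, 117 and 131 CPM in control. PSTO raised it with LPS and lowered it without (contrast 1.4, SE 0.15, adjusted p = 3.44e-06). Axl, a receptor for apoptotic cells, was lower (contrast -1.15, SE 0.26, adjusted p = 0.00486). Of 28 lysosome and autophagy genes 10 were higher and 0 lower (35.7% called against 21.5% of all genes), with 6 higher without LPS 3. Gla, a lysosomal galactosidase, had 87.7, 89.3 and 87.1 CPM with PSTO+LPS, 43.3, 40.4 and 42.3 CPM with LPS, 76.9, 85.2 and 80.5 CPM with PSTO and 72.4, 64.1 and 71.8 CPM in control. The LPS libraries alone were low (contrast 0.85, SE 0.09, adjusted p = 1.48e-06).

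Of 18 receptors for migration, lipids and purines 4 were higher and 5 lower, with 3 lower without PSTO 3 or control 3. C5ar1, the receptor of complement C5a, had 153, 152 and 162 CPM with PSTO+LPS, 240, 232 and 234 CPM with LPS, 340, 289 and 272 CPM with PSTO and 245, 251 and 254 CPM in control. PSTO lowered it with LPS and raised it without (contrast -0.86, SE 0.09, adjusted p = 1.96e-06). Cxcr4, a receptor for CXCL12, was higher (1.73, SE 0.26, adjusted p = 9.69e-05). Of 17 p53 targets 2 were higher and 5 lower (41.2% called against 21.5% of all genes), with 3 lower without PSTO 2, PSTO 3 or control 3. Cdkn1a, the inhibitor p21, was at -0.58 (SE 0.09, adjusted p = 0.000144). Of 10 genes of cytokine mRNA decay 1 was higher and 3 lower (40% called against 21.5% of all genes). There was 1 lower without LPS 1, PSTO 2, PSTO 3, PSTO+LPS 2, control 1 or control 2.

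Several lists lay near or under the background of 21.5% called. Of 29 ribosomal protein genes 3 were higher and 0 lower (10.3%), with a median of 0.06; this was 11 without control 2 and 1 without LPS 2, LPS 3 or PSTO+LPS 2. Of 27 respiratory chain genes 1 was called (3.7%), and 0 without LPS 1, LPS 2, PSTO+LPS 1 or PSTO+LPS 3. Of 23 ribosome biogenesis genes 4 were higher and 1 lower (21.7%), with 2 higher without LPS 1, LPS 3 or PSTO+LPS 3 and 7 without PSTO 2 or control 2.

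**Figure D5:**
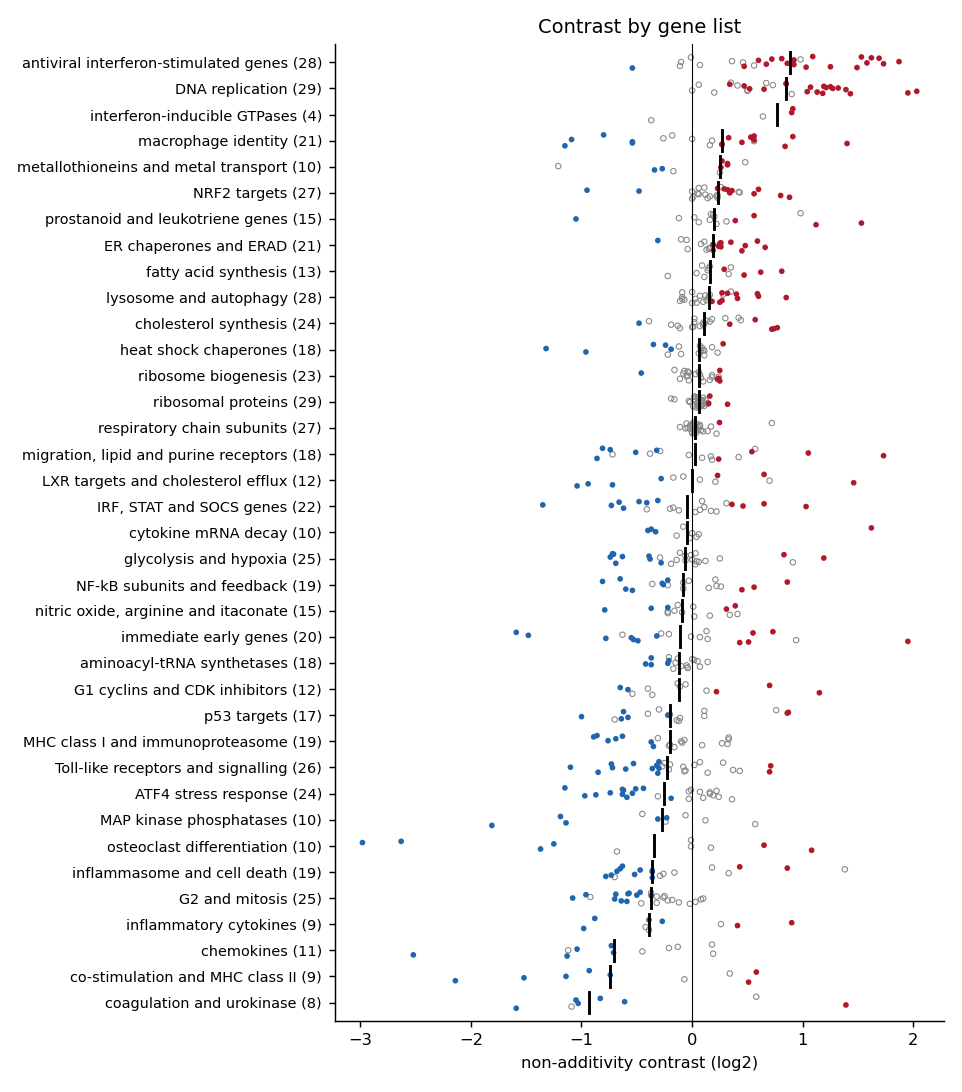
Non-additivity contrast (log2, horizontal axis) of every gene of the CPM rule in each gene list, one list per row with its number of genes, filled where the gene was called (red higher, blue lower) and with a black bar at the list's median. Lists are ordered by their median; DNA replication (0.85) and antiviral genes (0.89) stand at one end and coagulation genes (-0.93) at the other, and ribosomal (0.06) and respiratory (0.03) lists lie near 0.

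Among inflammatory cytokines, 9 of 22 passed the CPM rule, with 2 higher and 4 lower. Lower calls were 1 without PSTO 2 and 2 without PSTO 3, control 1 or control 3. Tnf, a central inflammatory cytokine, had 1544, 1499 and 1690 CPM with PSTO+LPS, 2339, 2234 and 2206 CPM with LPS, 24.9, 29.0 and 33.8 CPM with PSTO and 29.7, 33.7 and 33.0 CPM in control. The groups without LPS overlapped (contrast -0.39, SE 0.11, adjusted p = 0.0172; up to 0.161 in other fits, and not called without PSTO 2, PSTO 3, control 1 or control 3). Several cytokines were nearly absent without LPS, so no log contrast is read for them. Il1b had 2418, 2602 and 2584 CPM with PSTO+LPS, 1728, 1732 and 1654 CPM with LPS, 1.01, 0.828 and 0.993 CPM with PSTO and 0.156, 0.0 and 0.0 CPM in control. Il6 had 156, 147 and 159 CPM with PSTO+LPS, 48.6, 64.8 and 52.3 CPM with LPS, and at most 0.142 CPM in any library without LPS. For both, the PSTO+LPS libraries were above the LPS libraries. Ifnb1, encoding interferon-beta, had 12, 11.2 and 16.9 CPM with PSTO+LPS and 12.1, 16.3 and 17.5 CPM with LPS, which overlapped. Nos2, the inducible nitric oxide synthase, had 252, 412 and 400 CPM with PSTO+LPS and 466, 489 and 445 CPM with LPS.

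Additivity depends on the scale. Of the 2324 called genes, 2177 (93.7%) had the same sign when CPM changes were added in place of log2 changes, and 147 the opposite sign. Among genes above, Cxcl2, Dusp5, Dusp16, Plaur, Traf1 and Slc7a11 were below the product of the single effects but above their sum, with a linear excess of 146 CPM for Dusp5 and 251 CPM for Slc7a11. Dusp1, Cd80, Src, Metrnl, Klf7, Ccl22 and Myc were below both, and E2f1, Cdc6, Osm, Chml and Smad7 above both.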

How the data were processed

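RNA was sequenced on an Illumina instrument from 12 libraries. The authors deposited 1 table of read counts per gene, with no normalization. HISAT, DESeq2 and the build mm39 are named in the submitters' processing notes; for the counter, annotation release, strand setting and versions, the entry is not given in the sources used here. Counts were tested with edgeR 4.0.16 in R 4.3.3 (filterByExpr, TMM factors, quasi-likelihood fit over all 12 libraries without a replicate block) and adjusted over 14505 genes; limma 3.58.1 (voom) and DESeq2 1.42.0 served as alternatives. CPM values use TMM-scaled library sizes. Library totals of 15817880 to 28625784 reads set the precision, and SE and p cover the spread between libraries. Scripts were tested on simulated data. Linear excess is the same contrast of mean CPM.

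Members and lists were chosen with earlier results of these data known. Named genes were the 10 highest and 10 lowest contrasts reaching 5 CPM in a group, the 4 largest per class and direction, up to 4 called members per list and a panel of 22; other list members, such as the Mcm genes, were named after their values were seen. Alternatives changed the scaling, filter, tool, CPM floor or block, or left out each library. The leave-one-out fits with factors kept and the E2F motif were added after seeing the data. Promoters came from RefSeq GRCm38.p6 by symbol (7988 of 10830 genes matched); the count table carries no coordinates. Some named genes are not reported here.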

Additional observations from a re-analysis of the deposited data

Results flagged for a closer look

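These results were singled out because an effect passed the test with opposite signs in 2 settings, with the difference itself tested by the non-additivity contrast. The 4 genes with the largest contrasts in each direction among those whose PSTO effect reversed, at 5 CPM or more in a group, were E2f1 (contrast 2.03), Cdc6 (1.95), Impa2 (2.05), Slc16a12 (2.16), Klf7 (-2.37), Src (-2.63), Cdc42ep2 (-2.19) and Metrnl (-2.37). Chosen in the same way among those whose LPS effect reversed were Metrnl (-2.37), Dpep2 (-2.11), Nes (-2.54), Ocstamp (-2.98), Smad7 (1.64), Rbm38 (1.85), Tob1 (1.59) and Snrnp40 (4.58). Of the other named genes described above, the PSTO effect reversed for Acly (0.47), Alox5 (1.12), Cdk2 (1.15), Cebpa (1.4), Cyp51 (0.74), Gins2 (1.39), Hpgds (1.53), C5ar1 (-0.86), Cd40 (-2.14), Dpep2 (-2.11), Gch1 (-0.79) and Trib3 (-1.15), and the LPS effect for Hpgds (1.53) and Pmaip1 (0.86). The value of Snrnp40 rests on single libraries, 14.1 CPM in PSTO+LPS 3 and 13.7 CPM in control 3.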

How the results depend on the processing

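With a library left out, lower calls ranged over 933 to 1403 (933 without control 1), lower reversals of the PSTO effect over 99 to 186 and of the LPS effect over 61 to 106. PSTO-only enlarged genes numbered 29 to 41, and 27 without PSTO 2 with factors kept. At a CPM floor of 5 in every group, 183 genes were called at 2-fold or more, 77 higher and 106 lower. Higher and lower calls were 1070 and 1214 with RLE factors, 1100 and 1188 with upper-quartile factors, and 1179 and 1320 with DESeq2. Same-numbered libraries did not deviate together, so the numbers were not taken as pairs; the fit with a replicate block called 2212 genes, 875 higher and 1337 lower. Each value for a single gene or list was compared with every other fit, so a gene can count more than once. Of these comparisons 7970 stayed the same, 211 moved, 27 gained a call and 273 lost a call. None changed sign, and the cause was not tested. Depth limits genes near 1 CPM.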
